A study of Homo sapiens with 6 samples.

Results

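NRF2 (gene NFE2L2) is the transcription factor that switches on antioxidant, detoxification and glutathione genes, and this account follows the RNA of NRF2 and of the proteins that destroy, release, compete with or accompany it, in renal carcinoma cells adapted to copper. The 9 genes, chosen by name, were NFE2L2, its relative NFE2L1, the adaptor KEAP1, the ligase scaffold CUL3, the repressor BACH1, the small MAF partners MAFG, MAFF and MAFK, and the autophagy receptor SQSTM1. By exact gene symbol 8 of them were found among 25987 genes with a symbol, and BACH1 was not analysed here. All libraries came from 786-O, a long-established human line of clear cell renal carcinoma that has no functional VHL and is labelled wild type in every sample. The 3 copper libraries came from cells kept long term in DMEM/F12 with serum that had been preincubated with copper sulfate, and the 3 control libraries from cells given serum treated alike without copper. The copper labels read 30, 31 and 32 uM in replicates 1, 2 and 3, the study's design text names 30 uM, and all 3 were taken as 1 group. Nothing in the labels says that the replicates were separate cultures, so the p-values measure the spread between these libraries, which may be technical.

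In resting cells NRF2 is held in the cytoplasm by KEAP1, which hands it to a CUL3 ubiquitin ligase for destruction by the proteasome. Oxidants and reactive metals modify cysteines of KEAP1, and SQSTM1 (p62) can pull KEAP1 away for autophagy. NRF2 then accumulates, pairs with a small MAF protein and binds antioxidant response elements, where BACH1 with the same partners acts as a repressor. Much of this control is exerted on the proteins, which were not measured here. NFE2L1 encodes NRF1, a membrane-anchored relative known for inducing proteasome genes.

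Several genes of this circuit are known to carry antioxidant response elements of their own, so RefSeq promoter windows (GRCh38.p14, from 250 bases before to 50 after each start) were searched for the element's core, TGACNNNGC, on both strands. Of the 9 genes, 8 had a window, 17 windows in all, and MAFK had none. The core was found in 2 of the 17 windows and in 13.3% of all 35116 windows. That is no excess over the background, and the matches are shown only to let the element's letters be seen in place. They are written 5′ to 3′ on the gene's strand with the core in capitals; in the lower KEAP1 and the MAFF sequence the capitals are the core read on the opposite strand.
KEAP1, 54 to 46 bases before the start: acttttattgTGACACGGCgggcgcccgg
KEAP1, 31 to 23 bases before the start: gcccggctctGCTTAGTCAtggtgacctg
MAFF, 122 to 114 bases before the start: cttccaggggGCGGGGTCAtacgggggcg
The KEAP1 stretches lie on the minus strand at chr19:10502807-10502835 and chr19:10502784-10502812 and precede the start at 10502771, and the MAFF stretch lies on the plus strand at chr22:38201862-38201890 and precedes a start at 38201994. The related AP-1 letters TGAGTCA, which can share bases with the core because their other strand reads TGACTCA, were in 4.95% of all windows and in 1 of the 17, a BACH1 window. These are matches of letters in short windows, with no binding measured.

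The copper libraries held from 16301772 to 18189469 counts and the control libraries from 19219090 to 25079913, and 12944 genes passed the filter on low counts and were tested. Gene positions below are those of the table, on GRCh38 per the submitters' processing notes. All 8 genes passed, with from 213 counts (MAFF, copper replicate 1) to 6263 (NFE2L1, control replicate 1) in a library. Replicate 3 stood apart from replicates 1 and 2 in both groups on the first principal component of log2 CPM (counts scaled by library size), at 41.2 in copper and 17.6 in control, where the other libraries lay from -17.6 to -11.7, so results that rest on it are also given without it. The 7 renal carcinoma markers checked, PAX8 among them at 123 to 147 CPM, were all expressed, with sums of 4194 to 5110 CPM in copper and 4540 to 4709 in control. Of the 5 leukocyte and 4 endothelial markers 0 passed the filter, with sums of at most 0.995 CPM in any library. Of 4 fibroblast markers only LUM passed, the sums being 2.70 to 4.99 CPM in copper and 1.88 to 3.97 in control, and their part in the results was not tested. The red cell gene HBB was at 0 in all libraries.

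No RNA of NRF2's own circuit was called different between copper and control. Of the 8 genes, 0 were called at an adjusted p under 0.05 by edgeR's quasi-likelihood test, where 0% of all tested genes were called. With replicate number as a block, 22 genes were called, 0.170% of those tested, and again 0 of the 8. DESeq2 called 27 genes and 0 of the 8. At an unadjusted p under 0.05 edgeR found 455 genes, 3.52% of those tested, and 1 of the 8, SQSTM1. The copper and control libraries did not overlap for SQSTM1 and MAFG, both higher in copper, and for NFE2L1, lower in copper. Over all tested genes, 5.45% were without overlap and higher and 5.35% without overlap and lower. In bulk RNA, fewer cells expressing a gene and less RNA per cell cannot be told apart.

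**Figure D1:**
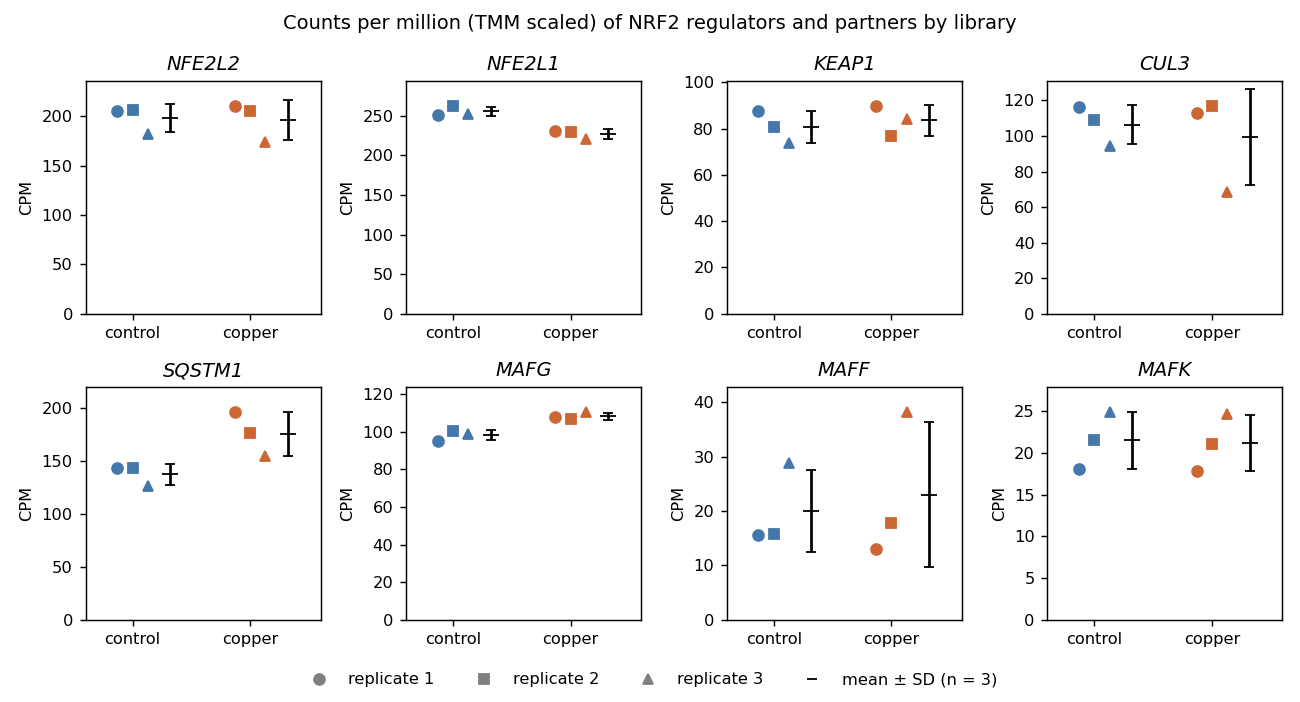
CPM (counts scaled by library size, linear axis from 0) in each of the 6 libraries for the 8 genes, with replicate number as the symbol and mean ± SD (n = 3) beside each group. Copper and control separate without overlap for SQSTM1, MAFG and NFE2L1, while MAFF and CUL3 are spread mainly by replicate 3.

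NFE2L2 (Entrez 4780; chromosome 2, 177230303 to 177264131, minus strand), which encodes NRF2, was at 210, 205 and 173 CPM in copper replicates 1, 2 and 3 and at 206, 207 and 182 CPM in control replicates 1, 2 and 3. The groups overlapped fully, with replicate 3 the lowest library of each. Copper averaged 196 ± 19.95 CPM and control 198 ± 14.1 CPM (SD, n = 3), which gave a log2 fold change of -0.013 (SE 0.11, edgeR, unadjusted p 0.909, adjusted p 1.00). The 95% interval of the fold was 0.829 to 1.18, so a difference within that range is not excluded.

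NFE2L1 (Entrez 4779; chromosome 17, 48048359 to 48061545, plus strand), which encodes the membrane-anchored factor NRF1, was at 231, 230 and 220 CPM in copper and at 252, 263 and 252.5 CPM in control. Every copper library was below every control library. Copper averaged 227 ± 6.12 CPM and control 256 ± 6.11 CPM (SD, n = 3), which gave a log2 fold change of -0.17 (SE 0.083; edgeR adjusted p 1.00, unadjusted p 0.0773). The interval of the fold was 0.777 to 1.02. In the 3 numbered pairs the difference was -0.12, -0.19 and -0.20 on the log2 scale, where one sign follows from the lack of overlap. With the block, and with replicate 3 left out, NFE2L1 was called, at -0.16 (edgeR adjusted p 0.0222). In that setting 912 of 12966 genes were called, and a block on so few libraries left little to measure their spread. With the block and all replicates NFE2L1 was not called (edgeR adjusted p 0.5945).

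KEAP1 (Entrez 9817; chromosome 19, 10486125 to 10502771, minus strand), the cysteine-rich sensor that binds NRF2, was at 89.8, 76.7 and 84.3 CPM in copper and at 87.7, 80.6 and 73.7 CPM in control. The groups overlapped. The log2 fold change was 0.051 (SE 0.11, edgeR adjusted p 1.00), and the interval of the fold ran from 0.871 to 1.23. Its sign differed between pairs, at 0.035, -0.073 and 0.19. KEAP1 showed no difference beyond its spread.

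CUL3 (Entrez 8452; chromosome 2, 224470150 to 224585397, minus strand), the scaffold that joins KEAP1 to the ubiquitin-transferring enzymes, was at 113, 117 and 68.5 CPM in copper and at 116, 109 and 94.3 CPM in control. Replicates 1 and 2 of both groups lay together, and copper replicate 3 was the lowest of the 6. The log2 fold change was -0.10 (SE 0.20, edgeR adjusted p 1.00). Without copper replicate 3, but with control replicate 3, it was 0.11 (adjusted p 0.673), and in replicates 1 and 2 alone it was 0.028. Copper replicate 3 therefore set the sign.

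The balance of NFE2L2 to its adaptor was read within each library as the log2 ratio of NFE2L2 to KEAP1 counts, which does not depend on how libraries are scaled. It was 1.23, 1.42 and 1.04 in copper and 1.23, 1.36 and 1.30 in control. The copper mean was 1.23 ± 0.19 and the control mean 1.30 ± 0.065 (SD, n = 3), a difference of -0.068 (two-sided exact permutation test, p 0.6, where 3 against 3 cannot go below 0.1). In pairs 1, 2 and 3 the difference was -0.0012, 0.060 and -0.26, so the lower copper mean came from replicate 3. Without copper replicate 3 the difference was 0.027 (exact permutation p 0.8).

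SQSTM1 (Entrez 8878; chromosome 5, 179807009 to 179838077, plus strand), which encodes the autophagy receptor p62, had the smallest p of the 8 genes. It was at 196, 176 and 154 CPM in copper and at 143, 143 and 126 CPM in control. The lowest copper library stood above the highest control library, and replicate 3 was the lowest of both groups. Copper averaged 175 ± 20.8 CPM and control 137 ± 9.67 CPM (SD, n = 3), which gave a log2 fold change of 0.36 (SE 0.12). The unadjusted p by edgeR was 0.0165 and the adjusted p over all tested genes 1.00, so the difference was not called; the interval of the fold was 1.06 to 1.54 before any adjustment. With the block the log2 fold change was 0.35 (SE 0.083, adjusted p 0.289).

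In the 3 numbered pairs the log2 differences in SQSTM1 were 0.46, 0.31 and 0.29. Their one sign follows from the lack of overlap and is no further result. In replicates 1 and 2 alone, a choice made with the deviation of replicate 3 known, edgeR called SQSTM1 at a log2 fold change of 0.38 (SE 0.062, adjusted p 0.0165). In that fit 111 of 12966 genes, 0.856%, were called, and SQSTM1 was the 1 of the 8 among them. Without copper replicate 3 but with control replicate 3 it was 0.44 (adjusted p 0.152) and was not called. Neither core motif was found in any of the 3 SQSTM1 windows, which says only that these letters are absent from those stretches.

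**Figure D2:**
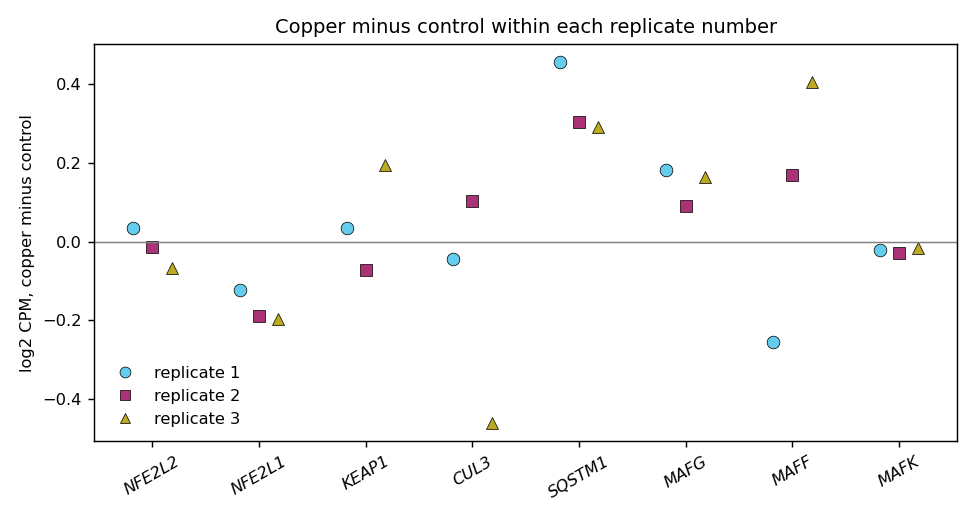
Log2 CPM of the copper library minus that of the control library with the same replicate number, for each of the 8 genes, with symbols for replicates 1, 2 and 3. All 3 points lie above 0 for SQSTM1 and MAFG and below 0 for NFE2L1 and MAFK, and the points of MAFF and CUL3 spread widest.

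The small MAF proteins lack an activation domain and supply the DNA-binding partner for NRF2, NRF1 and BACH1. MAFG (Entrez 4097; chromosome 17, 81918270 to 81927735, minus strand), the most abundant of the 3 per length, was at 108, 107 and 110.5 CPM in copper and at 95.2, 100.4 and 98.6 CPM in control. The groups did not overlap, and MAFG had the smallest variation of the 8 genes over the 6 libraries, with a coefficient of variation of 5.84%. Copper averaged 108 ± 1.88 CPM and control 98.1 ± 2.65 CPM (SD, n = 3), which gave a log2 fold change of 0.14 (SE 0.083, edgeR unadjusted p 0.120, adjusted p 1.00). The interval of the fold was 0.967 to 1.26, and the pairs differed by 0.18, 0.090 and 0.16.

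MAFF (Entrez 23764; chromosome 22, 38201932 to 38216510, plus strand), a small MAF that is readily induced by stress and cytokines, was at 13.0, 17.8 and 38.2 CPM in copper and at 15.5, 15.8 and 28.8 CPM in control. Replicate 3 was the highest library in each group, and the other 4 libraries overlapped. The log2 fold change was 0.20 (SE 0.41, edgeR adjusted p 1.00) with an interval of the fold from 0.589 to 2.25, the widest of the 8. Without copper replicate 3, but with control replicate 3, it was -0.37 (adjusted p 0.648), and in replicates 1 and 2 alone it was -0.020. The pairs differed by -0.26, 0.17 and 0.41, so no direction can be given for MAFF.

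MAFK (Entrez 7975; chromosome 7, 1530702 to 1543043, plus strand) was at 17.8, 21.1 and 24.6 CPM in copper and at 18.1, 21.5 and 24.9 CPM in control, near-equal values within each number. The log2 fold change was -0.019 (SE 0.16, edgeR adjusted p 1.00), with an interval of the fold from 0.757 to 1.29. Pairs differed by -0.022, -0.029 and -0.016. TMEM184A, with 69 to 136 counts per library, overlaps MAFK on the opposite strand, and whether the counting used strand is not given in the sources used here, so the 2 genes' reads may be mixed.

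**Figure D3:**
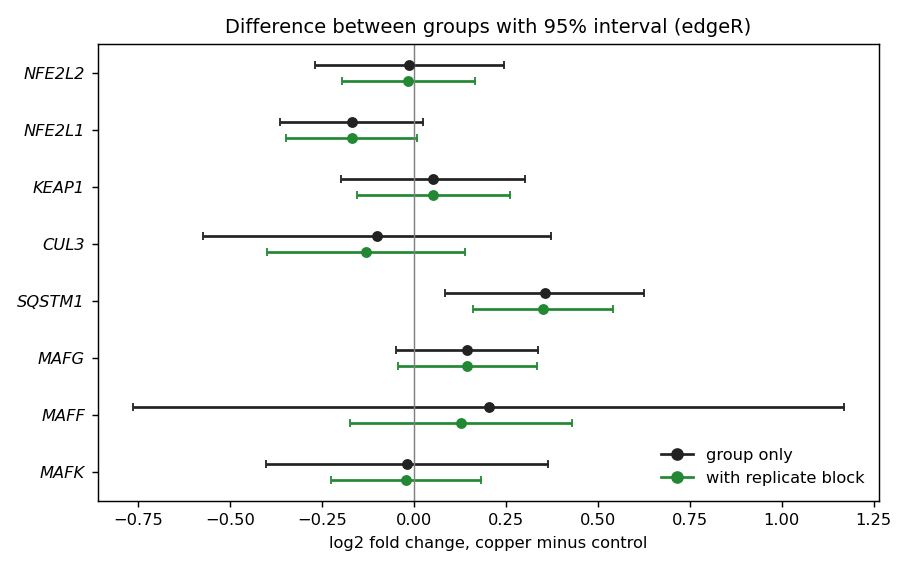
Log2 fold change, copper minus control, with its 95% interval for each of the 8 genes from edgeR with group only (black) and with the replicate block (green). Intervals include 0 for 7 of the 8 genes in both fits, and those of SQSTM1 lie above 0 before adjustment for the 12944 genes tested.

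Taken per kilobase of exon, the 3 small MAF genes summed to 35.4 ± 6.14 CPM per kb in copper and 32.5 ± 3.86 in control (SD, n = 3). MAFG made up 67.4, 61.6 and 49.99% of that sum in copper replicates 1, 2 and 3 and 62.3, 61.3 and 51.4% in control. The share of MAFF was 15.4, 19.5 and 32.7% in copper and 19.3, 18.3 and 28.5% in control. In both groups the share of MAFF was highest, and that of MAFG lowest, in replicate 3.

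By level per kilobase of exon, the control order was NFE2L1 (47.8 ± 1.14 CPM per kb), NFE2L2 (43.7 ± 3.12), SQSTM1 (39.4 ± 2.78), KEAP1 (25.6 ± 2.21), MAFG (18.8 ± 0.507), CUL3 (14.1 ± 1.48), MAFF (7.28 ± 2.75) and MAFK (6.39 ± 1.01; SD, n = 3 each). Neighbours whose libraries overlapped were NFE2L2 with SQSTM1 and MAFF with MAFK. In copper SQSTM1 had the highest mean, 50.5 ± 5.99 CPM per kb, above NFE2L2 at 43.3 ± 4.403 and NFE2L1 at 42.5 ± 1.14, but its libraries overlapped with those of NFE2L2 and those of NFE2L2 with those of NFE2L1. From KEAP1 down the copper order was as in control, and neighbours whose libraries overlapped there were CUL3 with MAFF and MAFF with MAFK. With the median length of coding transcripts in place of the exon union, NFE2L2 led in control and SQSTM1 in copper, and among KEAP1, MAFG and CUL3 the leading mean was that of CUL3 in control and of MAFG in copper in place of KEAP1, so the order within the upper and the middle group depends on the length chosen.

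For MAFF, CUL3, MAFK and NFE2L2, the gap between replicate 3 and the other replicates exceeded the difference between group means in both groups. Relative to the mean of replicates 1 and 2, replicate 3 differed on the log2 scale by 1.32 in copper and 0.87 in control for MAFF. For CUL3 it differed by -0.74 and -0.25, and for MAFK by 0.34 and 0.33. NFE2L2 (-0.26 and -0.18) and SQSTM1 (-0.27 and -0.18) were both lower there. KEAP1 differed by 0.023 and -0.19, NFE2L1 by -0.068 and -0.026, and MAFG by 0.041 and 0.013. What sets replicate 3 apart is not given in the labels.

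The genes most like NFE2L2 were found by the root mean square difference of mean-centred log2 CPM over the 6 libraries, among 10289 other genes with at least 5 CPM. They were FAM171A1 (0.012), the cytosolic chaperone HSP90AB1 (0.014) and BCL2L13 (0.015), against a median of 0.17 over those genes. NFE2L1, the member nearest to NFE2L2, was at 0.11. For SQSTM1 the nearest were the complex I assembly factor NDUFAF4 (0.041), PTGES2 (0.047) and PHTF1 (0.051), against a median of 0.26. The 6 libraries share the replicate 3 deviation, which enters every such distance.

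Around these genes, ubiquitin ligase genes linked to NRF2 or to its partners and competitors were split in direction. Of 15 further ubiquitin ligase components and regulators, among them RBX1, BTRC and GSK3B, 6 were higher and 9 lower in copper. Their median log2 fold change was -0.016, and that of all tested genes was 0.0052. Of these 15, 0 were called with or without the block, where 0.170% and 0% of all tested genes were called. The smallest p was that of BTRC, the F-box protein of the KEAP1-independent route of NRF2 destruction, at 42.1 ± 2.33 CPM in copper and 48.0 ± 2.48 CPM in control (SD, n = 3), with a log2 fold change of -0.19 (SE 0.095, edgeR adjusted p 1.00). Among 14 tested bZIP relatives and coactivators, 5 were higher, the median was -0.061 and 0 were called with or without the block. JUND, an AP-1 subunit, had the smallest p, at a log2 fold change of 0.23 (SE 0.13, edgeR adjusted p 1.00). The largest log2 fold change was that of FOSL1, at 0.31 (SE 0.33).

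Proteins that compete with NRF2 or KEAP1 for binding formed a list of 9, all tested, of which 5 were higher, with a median of 0.040. CDKN1A, the cell cycle inhibitor p21 that also binds NRF2 and shields it from KEAP1, was at 219, 207 and 212 CPM in copper and at 165, 151 and 158 CPM in control. All copper libraries stood above all control libraries, with log2 differences of 0.40, 0.46 and 0.42 in pairs 1, 2 and 3. The log2 fold change was 0.43 (SE 0.086; edgeR adjusted p 0.710, or 0.134 in the blocked fit). In replicates 1 and 2 alone CDKN1A was called (0.43, adjusted p 0.00956), the 1 of the 9 that was, where 0.856% of all genes tested in that fit were called.

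Autophagy receptors and other genes linked to SQSTM1, among them NBR1, OPTN, TBK1, MTOR and TRAF6, were split in direction. Of 20 tested of 22 listed, 11 were higher and 9 lower, and the median was 0.0076. With the block 0 were called, as without it and in replicates 1 and 2 alone. Over all tested genes the shares called were 0.170%, 0% and 0.856%. The smallest p was that of CSNK2A1, a kinase subunit, at 139 ± 3.02 CPM in copper and 153 ± 2.65 CPM in control (SD, n = 3; log2 fold change -0.14, SE 0.081, edgeR adjusted p 1.00). The difference between SQSTM1 and these genes was not tested.

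NRF1 is cut free from the endoplasmic reticulum by a set of enzymes before it reaches the nucleus. Of 11 genes linked to the processing, modification or turnover of NRF1, including DDI2, NGLY1 and VCP, 4 were higher and 7 lower. Their median was -0.062. With or without the block 0 were called, where 0.170% and 0% of all tested genes were called. UFD1, a cofactor of VCP, had the smallest p (log2 fold change 0.22, SE 0.091, edgeR adjusted p 1.00). Of 32 proteasome subunit genes, the known targets of NRF1, 30 were higher and 2 lower, where 51.4% of all tested genes were higher, with a median of 0.13 and medians of 0.075, 0.10 and 0.19 in pairs 1, 2 and 3. At an unadjusted p under 0.05 there were 2 of 32, against 3.52% of all tested genes, and 0 were called. The groups did not overlap for 9 of the 32, all higher, against 5.45% of all tested genes. As earlier results of these data were known when the list was chosen, the comparison with all genes is not an independent test. PSMA5 had the smallest p, at 164 ± 6.11 CPM in copper and 141 ± 7.88 CPM in control (SD, n = 3; log2 fold change 0.22, SE 0.089, edgeR adjusted p 1.00).

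NRF2 target genes were mostly higher in copper. Of 34 tested of 37 listed, 32 were higher, where 51.4% of all tested genes were, with a median of 0.31 and medians of 0.40, 0.35 and 0.41 in pairs 1, 2 and 3. Without the block 15 had an unadjusted p under 0.05, all higher, against 3.52% of all tested genes in either direction, and 0 were called. With the block 6 of the 34 were called, all higher, against 0.170% of all tested genes. In replicates 1 and 2 alone 12 of the 34 were called, against 0.856%. The list was chosen with earlier results of these data known, so these shares are not independent support for a response of NRF2 targets. The difference between these targets and the 8 regulators was not tested. NQO1, the quinone reductase often used as a readout of NRF2, was at 381, 326 and 324.5 CPM in copper and at 230, 204 and 209.5 CPM in control. The groups did not overlap for NQO1, with a log2 fold change of 0.68 (SE 0.11; edgeR adjusted p 0.241, or 0.0232 in the blocked fit).

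HMOX1, heme oxygenase, which both NRF2 and BACH1 control, was at 64.5, 55.5 and 75.8 CPM in copper and at 26.3, 28.5 and 37.0 CPM in control. The log2 fold change was 1.09 (SE 0.17; edgeR adjusted p 0.241, or 0.00764 in the blocked fit). Of the steroid-reducing enzymes, AKR1C3 was at 24.2, 26.5 and 30.7 CPM in copper and at 5.55, 6.07 and 8.59 CPM in control, and AKR1C1 at 9.87, 14.1 and 18.9 CPM in copper and at 2.73, 3.53 and 6.81 CPM in control. The groups did not overlap for either enzyme, and the 2 genes share long near-identical stretches, so the split of reads between them is uncertain. In all 8 tested genes known to be repressed by BACH1 (of 9 listed), the log2 fold change was positive, from 0.21 to 1.09, and all 8 are also in the NRF2 list. The lowest was SLC7A11, the cystine importer, which differed by 0.49, 0.44 and -0.44 in pairs 1, 2 and 3. GCLM, the modifier subunit of glutathione synthesis, differed by 0.69, 0.56 and 0.0023. SLC7A11 and GCLM were named after their values were seen.

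**Figure D4:**
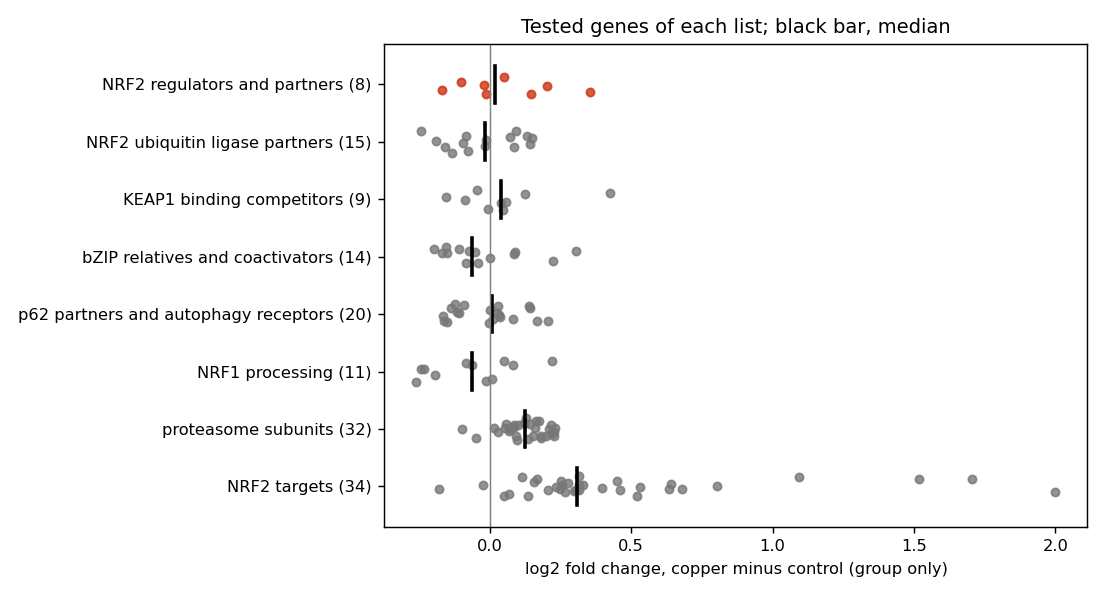
Log2 fold change, copper minus control, of each tested gene in the 8 NRF2 regulators and partners (red) and in 7 lists of pathway genes (grey), with the number of tested genes in brackets and the median as a black bar. NRF2 targets have a median of 0.31 and reach 2.00, while the 8 regulators lie between -0.17 and 0.36.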

How the data were processed

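RNA of 6 libraries, 3 copper and 3 control, was analysed from 1 deposited table of raw counts per gene, made by the authors from directional total RNA libraries. The submitters' processing notes name STAR, FastQC, edgeR and GRCh38, without roles or versions; the counting program and its use of strand are not given in the sources used here. Positions are those of the table, with 1 added to starts, and 5 genes without a symbol (0.000814% of counts) were left out.

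The fit used edgeR 4.0.16 in R 4.3.3: filterByExpr (minimum count 10, minimum total 15), TMM scaling, robust quasi-likelihood test on group, Benjamini-Hochberg adjustment over all tested genes, called under 0.05, prior count 2. Intervals of 95% come from the fitted standard error. CPM use TMM-scaled library sizes. Lengths are from GENCODE 29. The scripts were tested on simulated counts.

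The same replicate numbers occur in both groups. Deviations from the group mean of same-numbered libraries correlated across genes at 0.46, 0.40 and 0.65 (minimum for pairing 0.1), while replicate 1 minus replicate 2 gave a correlation of only 0.15 across the groups; the blocked fit is given where it changes a count or call. No 2 libraries of a group agreed within sampling noise (chi-square per degree of freedom 5.40 to 66.0).

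Members and gene lists were chosen with earlier results of these data known. Named list genes were those with the smallest p in each list and up to 4 called with or without the block, plus HMOX1, and for NFE2L2 and the member with the smallest p the 3 genes closest in pattern. Other settings tried were DESeq2 1.42.0, limma-voom (limma 3.58.1), scaling by total counts, RLE or upper quartile, either no filter or a minimum mean of 10 counts, a non-robust fit, the block, each library left out, and replicates 1 and 2 alone. The order by the median coding transcript was added after seeing the data. BACH1 and its ratio to NFE2L2 were not analysed here. One item of a gene list is not reported here.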

Additional observations from a re-analysis of the deposited data

How the results depend on the processing

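The count of called genes was 0 under all scalings, a mean of 10 counts, limma-voom and the non-robust fit. DESeq2 called 27 genes, the replicate block 22, the unfiltered fit 12, and replicates 1 and 2 alone 111. Leaving out 1 library gave 0 to 15 (15 without copper replicate 3), and the replicate block called 74, 77 and 912 genes without pair 1, 2 and 3; the cause was not tested. Over 19 alternatives, MAFG (0.12 to 0.17), SQSTM1 (0.27 to 0.44) and NFE2L1 (-0.20 to -0.14) kept their direction. With the replicate block and without replicate 3, SQSTM1 (0.38, edgeR adjusted p 2.48e-05) and NFE2L1 (-0.16) were called. That fit called 912 of 12966 genes, and a block on so few libraries left little to measure their spread. Replicate 1 minus replicate 2, which it blocks, correlated at only 0.15 across the groups. SQSTM1 was also called in replicates 1 and 2 alone. The replicate block by itself changed no call of the 8 genes (SQSTM1 edgeR adjusted p 0.289). The other 5 genes had values near 0 or set by single libraries, and reversed. Upper-quartile and total-count scaling put NFE2L2 at 0.0076 and 0.014 and MAFK at 0.0062 and 0.0086, where the all-gene medians were 0.028 and 0.032. In replicates 1 and 2 alone, NFE2L2 was at 0.0098, KEAP1 at -0.018, CUL3 at 0.028 and MAFF at -0.020, and the NFE2L2 to KEAP1 ratio at 0.029. With the replicate block and without replicate 3 they were at 0.0099, -0.018, 0.029 and -0.034. Leaving out 1 library gave -0.072 to 0.068 for NFE2L2, -0.010 to 0.11 for KEAP1, -0.24 to 0.11 for CUL3, -0.37 to 0.55 for MAFF, -0.14 to 0.097 for MAFK and -0.16 to 0.027 for the ratio. Positive values came for CUL3 only without copper replicate 3 and negative ones for MAFF likewise, and in no other of the 6 such fits. The ratio was -0.068 with the replicate block too (exact sign-flip p 0.75, the smallest possible being 0.25). With 3 libraries a group, differences within the printed intervals are not excluded. MAFF and MAFK rest on the fewest counts, 213 to 708 and 293 to 476.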
